A study of Homo sapiens with 15 samples.

Results

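The genes described here are 39 members of the ATF4 amino-acid stress response. They were chosen by name out of 33367 genes in the table, with earlier results of these data known. They were taken as 7 transcription factors, 5 stress effectors, 7 amino-acid transporters, 6 enzymes of serine, glycine and one-carbon metabolism, 5 enzymes that make other amino acids, and 9 genes for cytosolic tRNA synthetases and the tRNA exporter XPOT. Levels were measured by RNA sequencing in 15 libraries of Reh, an established human line from B-lymphoblastic leukaemia. It bears the fusion gene ETV6::RUNX1, and its other ETV6 allele is deleted. In 9 libraries doxycycline had been given at 500 ng/ml for 48 h to switch on a transgene. It encoded wild-type ETV6 with a V5 tag (ETV6_WT), the V5-tagged mutant R399C (ETV6_R399C) or, as control, the fluorescent protein tagBFP, in 3 libraries each. The other 6 libraries came from CRISPR interference, in which inactive Cas9 carries the KRAB repressor to a promoter. Its expression was induced with 500 ng/ml doxycycline for 72 h, and cells were sorted for the reporter on the guide vector. They carried a guide to the ERG promoter (sgERG) or a non-targeting guide (sgCtrl), 3 libraries each. Every group therefore had doxycycline and an induced protein.

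ATF4 is a basic leucine zipper transcription factor. When amino acids run short or proteins misfold, kinases phosphorylate the initiation factor eIF2, most translation slows, and the ATF4 message is translated more. ATF4 then binds, often with a C/EBP partner, at genes that import amino acids, make them and charge tRNAs with them, and at regulators that limit growth or end the response. Control of ATF4 is thus largely at translation, and its mRNA level is not a measure of its protein. ETV6 is a repressor of the ETS family, R399C lies in its DNA-binding domain, and ERG is an ETS activator.

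Reads assigned to named genes totalled 21562582 to 26176772 per library with ETV6_WT, 20395193 to 25381564 with ETV6_R399C, 24015070 to 31544084 with tagBFP, 29697570 to 33329407 with sgERG and 37155008 to 48950747 with sgCtrl. ETV6 stood at 486 ± 18.1 CPM with ETV6_WT and 373 ± 14.7 CPM with ETV6_R399C, against 5.86 ± 0.327 CPM with tagBFP (SD, n = 3 each), so the wild-type transgene was the more abundant transcript. ERG stood at 105.1 ± 4.14 CPM with sgERG and 525 ± 6.35 CPM with sgCtrl (SD, n = 3 each), and ETV6 at 6.56 ± 0.513 CPM with sgERG and 13.2 ± 1.25 CPM with sgCtrl, 2.01-fold lower with sgERG (edgeR adjusted p = 7.0e-05). CPM are read counts scaled to library size within 1 experiment. Of 10 B-lineage markers 9 were at 1 TPM or more in every group, and none of 6 T-lineage or 4 erythroid markers was. Of 6 myeloid markers 2 to 4 were, with summed levels of 29.3 to 72.2 TPM, and ELANE was under 0.1 TPM in every group. Some moved with the groups. Of 9 tested B-lineage markers 8 were higher with each transgene than with tagBFP, MME by 1.94-fold with ETV6_WT and 1.73-fold with ETV6_R399C. Over all genes tested, 17.6% were higher with ETV6_WT and 18.8% with ETV6_R399C. The myeloid marker MPO was higher with both, CSF1R higher and CD33 lower with ETV6_WT, and LYZ higher with ETV6_R399C. With sgERG over sgCtrl 4 of 9 B-lineage markers were lower and 1 higher, MPO was 1.34-fold and CD33 1.98-fold higher. There, 7.74% of all genes tested were lower and 6.89% higher. The part of the lineage markers in the members' results was not tested. In bulk RNA, fewer cells of a kind and less RNA per cell cannot be told apart, and nothing in the labels says that replicates were separate cultures, so p-values speak only of how these libraries vary.

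The letters that ATF4 and its C/EBP partners are known to bind share a core, TGATGNAA, where N is any base. It was searched on both strands of RefSeq promoter windows (GRCh38.p14), 250 bases before to 50 after each gene's start, which 32 of the 39 members have. The core was in 9 of the 32 windows (28.1%), against 3.63% of 34796 distinct windows of all genes. Members had the first window listed for them, while other genes could have several. Members were also named as genes of the ATF4 response, so their share is no independent result. The other windows lacked the core, among them those of TRIB3, SESN2, DDIT4, PHGDH, PSAT1 and MTHFD2. The 9 matches are shown because they fall in members of different roles. Each is given with up to 11 bases on either side, on the strand that reads the core, and capitals mark the core.
ATF3, chr1:212565205-212565234, forward strand: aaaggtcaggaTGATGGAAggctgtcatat
CHAC1, chr15:40953251-40953280, reverse strand: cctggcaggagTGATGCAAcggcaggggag
SLC3A2, chr11:62881725-62881748, reverse strand: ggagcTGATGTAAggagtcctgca
SLC7A1, chr13:29595663-29595692, reverse strand: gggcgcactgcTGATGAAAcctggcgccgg
ASNS, chr7:97872458-97872487, reverse strand: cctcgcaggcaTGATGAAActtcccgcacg
AARS, chr16:70289675-70289704, forward strand: tctaacttggcTGATGCAActgcgagaaaa
IARS, chr9:92293692-92293721, forward strand: gcgcacggaggTGATGCAAcgcgctgaaaa
MARS, chr12:57488053-57488082, reverse strand: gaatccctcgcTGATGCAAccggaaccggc
NARS, chr18:57621804-57621833, reverse strand: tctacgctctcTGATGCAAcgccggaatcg

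The core read TGATGCAA in 5 of the 9, among them 4 tRNA synthetase genes and CHAC1. It lay before the RefSeq start in ATF3, CHAC1, ASNS, AARS and IARS, over it in MARS and after it in SLC3A2, SLC7A1 and NARS. RefSeq's starts are not always those of the transcript with most of the gene's signal. The ATF3 stretch lies 43451 bases before the annotated start of that transcript, ATF3-202, so it is not in its promoter. The middle of the stretch lies after the leading transcript's start in CHAC1 (by 116 bases), SLC3A2 (864), MARS (110), NARS (355) and SLC7A1 (11). The ETS core CCGGAAGT was in 3 of the 32 windows (9.38%), against 4.13% of all windows, and the GGAA pair GGAAGGAA in 1 (3.12%), against 3.68%. Among the 5 genes with TGATGCAA the log2 fold change of ETV6_WT over ETV6_R399C ran from -1.21 (CHAC1) to -0.08 (NARS). A match is a string of letters and not a measured binding site.

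With ETV6_WT most of the module was lower. Of the 36 members with enough reads to test, 27 were lower than with tagBFP and 0 higher at an adjusted p under 0.05 (edgeR's quasi-likelihood test, Benjamini-Hochberg adjustment over 14242 genes). Over all genes tested, 18.9% were lower and 17.6% higher. The median log2 fold change of the tested members was -0.28, against 0.00 over all genes. With ETV6_R399C, over the same tagBFP libraries, 17 of the 36 were higher and 4 lower, where 18.8% of all genes were higher and 22.1% lower, and the members' median was 0.14. These comparisons share their controls, so they are not independent of each other. Set directly against each other, ETV6_WT was lower than ETV6_R399C for 31 of the 36 members and higher for 1, where 9.29% of all genes were lower and 12.1% higher. The members' median was -0.39 in this comparison, against 0.02 over all genes. Most differences were small: 9 members were at least 1.5-fold lower with ETV6_WT than with ETV6_R399C, and 4 of them at least 2-fold. How many of all genes passed these folds was not counted.

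**Figure D1:**
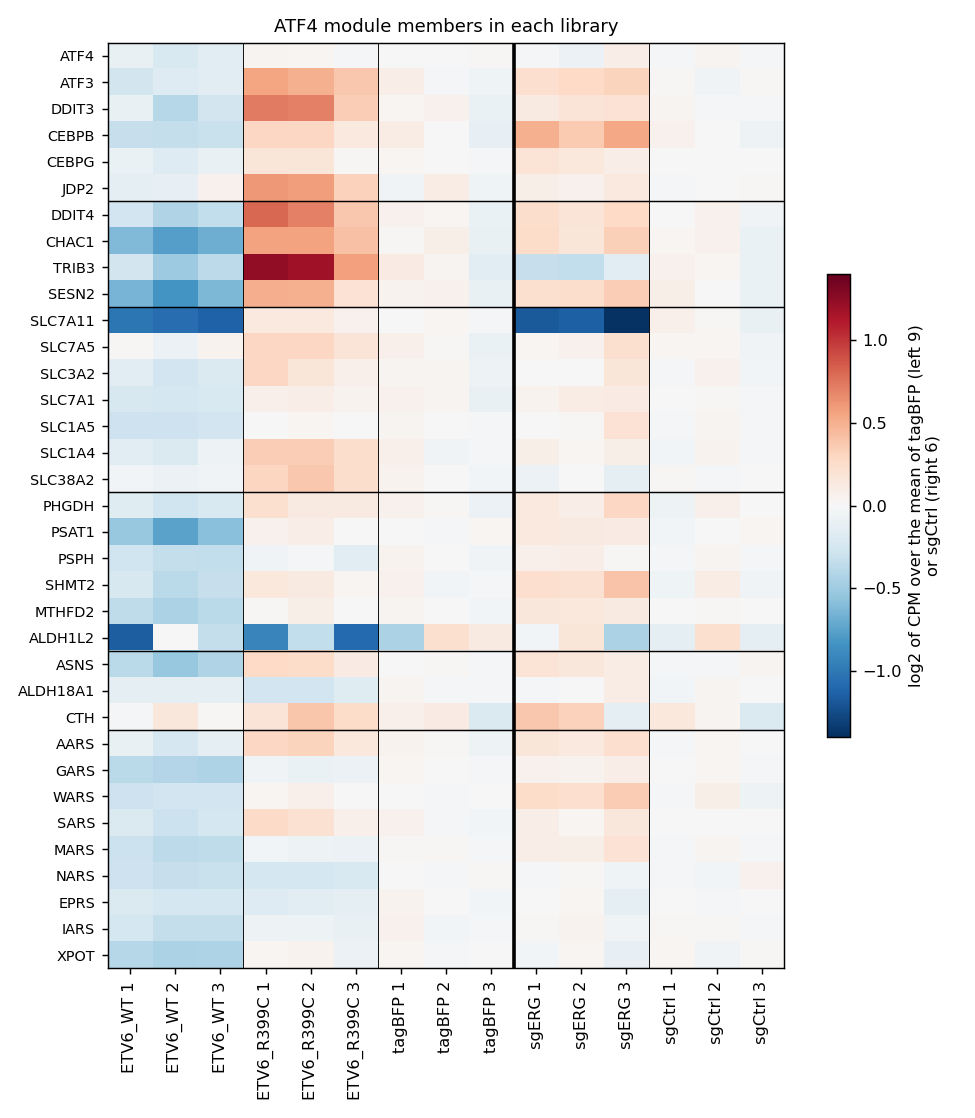
Each row is 1 of the 35 members tested in all 4 comparisons, grouped by role (lines), and each column 1 library. Colour is the log2 of its CPM over the mean of its experiment's control, tagBFP for the left 9 libraries and sgCtrl for the right 6. SLC7A11 is the darkest blue row with both ETV6_WT and sgERG, while TRIB3, DDIT4 and DDIT3 are the reddest with ETV6_R399C.

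Among the transcription factors ATF4 itself (chromosome 22, 39519695 to 39522685, forward strand, hg38) moved little. It stood at 655, 605 and 635 CPM with ETV6_WT, at 719.7, 714 and 693 CPM with ETV6_R399C, and at 699, 701 and 708 CPM with tagBFP. The ETV6_WT libraries lay below all others, and the other 2 groups overlapped. ATF4 fell with ETV6_WT by 0.15 on the log2 scale over tagBFP (± 0.03 SE, edgeR adjusted p = 0.00208) and gave 0.01 with ETV6_R399C (± 0.03 SE, edgeR adjusted p = 0.789). ETV6_WT was also lower than ETV6_R399C (log2 -0.17 ± 0.03 SE, edgeR adjusted p = 0.00275). The leading transcript ATF4-202 held 96.2% of the gene's TPM with ETV6_WT, 97.1% with ETV6_R399C and 95.4% with tagBFP.

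The other 5 tested factors differed by log2 -0.25 to -0.85 between ETV6_WT and ETV6_R399C. ATF3, a stress-induced factor of the same family, stood at 14.5, 15.3 and 15.6 CPM with ETV6_WT, 25.3, 24.5 and 22.4 CPM with ETV6_R399C, and 18.4, 17 and 16.6 CPM with tagBFP. The 3 groups did not overlap. ETV6_WT was lower than tagBFP (log2 -0.19 ± 0.06 SE, edgeR adjusted p = 0.0353) and ETV6_R399C higher (log2 0.47 ± 0.06 SE, edgeR adjusted p = 1.1e-04). The fall with ETV6_WT lost its call in DESeq2 and without any 1 of the ETV6_WT libraries or tagBFP replicate 1, with adjusted p of 0.0261 to 0.454 over the alternatives. ETV6_WT was also lower than ETV6_R399C (log2 -0.67 ± 0.06 SE, edgeR adjusted p = 2.9e-05). All of these ATF3 calls were lost when average transcript length was allowed for. ATF3-202 held 59.1 ± 8% of the ATF3 signal with ETV6_WT, 77 ± 16.1% with ETV6_R399C and 60.4 ± 6.07% with tagBFP (SD, n = 3 each).

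DDIT3, which encodes the pro-apoptotic factor CHOP, stood at 19.3, 15.7 and 17.3 CPM with ETV6_WT, 34.3, 33.8 and 26.2 CPM with ETV6_R399C, and 21.1, 21.5 and 19.4 CPM with tagBFP. The ETV6_R399C libraries lay above all others. It rose 1.52-fold with ETV6_R399C over tagBFP (log2 0.60 ± 0.10 SE, edgeR adjusted p = 6.2e-04) and did not pass the test with ETV6_WT (log2 -0.25 ± 0.11 SE, edgeR adjusted p = 0.0905). ETV6_WT was 1.81-fold lower than ETV6_R399C (edgeR adjusted p = 1.9e-04). DDIT3 overlaps MARS and MBD6 on the opposite strand and the strand setting of the counting is not given in the sources used here, so its reads are uncertain. Over tagBFP, MARS fell with ETV6_WT (log2 -0.34 ± 0.03 SE, edgeR adjusted p = 1.9e-06) and gave -0.06 ± 0.03 SE with ETV6_R399C (edgeR adjusted p = 0.0817). It was also lower with ETV6_WT than with ETV6_R399C (log2 -0.28 ± 0.03 SE, edgeR adjusted p = 3.1e-05), and gave 0.13 with sgERG over sgCtrl (edgeR adjusted p = 0.0827). MARS averaged 288.7 CPM and MBD6 73.4 CPM over the 15 libraries, against 30.3 CPM for DDIT3. Their part in the DDIT3 values was not tested.

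CEBPB and CEBPG, partners of ATF4 on DNA, and JDP2, a repressor that binds related sites, completed the 6 tested factors. CEBPB averaged 33.7 ± 0.182 CPM with ETV6_WT, 49.9 ± 2.98 CPM with ETV6_R399C and 42.2 ± 3.30 CPM with tagBFP (SD, n = 3 each). Over tagBFP it fell with ETV6_WT (log2 -0.33, edgeR adjusted p = 0.00128) and rose with ETV6_R399C (log2 0.24, edgeR adjusted p = 0.00638). CEBPG gave -0.13 with ETV6_WT (edgeR adjusted p = 0.0375) and 0.12 with ETV6_R399C (edgeR adjusted p = 0.0442), calls that were lost without ETV6_WT replicate 2 or 3 or tagBFP replicate 1 (ETV6_WT) and without ETV6_R399C replicate 1 or 2 or any tagBFP library (ETV6_R399C). JDP2 rose with ETV6_R399C (log2 0.51 ± 0.09 SE, edgeR adjusted p = 6.2e-04) and averaged 13.3 ± 1.06 CPM with ETV6_WT against 13.9 ± 0.874 CPM with tagBFP (edgeR adjusted p = 0.603). All 6 were lower with ETV6_WT than with ETV6_R399C, where 9.29% of all genes tested were. NUPR1, a small chromatin-associated stress protein, averaged 0.0834 to 0.136 CPM across the 5 groups and was too low to test.

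The stress effectors had the largest median difference of any role group between ETV6_WT and ETV6_R399C, at log2 -1.16 over the 4 tested. TRIB3, a pseudokinase that feeds back on ATF4 (chromosome 20, 362835 to 397559, forward strand), stood at 49.2, 41.4 and 45.6 CPM with ETV6_WT, 139, 134 and 87.4 CPM with ETV6_R399C, and 63.6, 60.3 and 52.8 CPM with tagBFP. Every ETV6_R399C library lay above every tagBFP library, and ETV6_R399C replicate 3 was well below the other 2. TRIB3 rose 2.04-fold with ETV6_R399C over tagBFP (log2 1.03 ± 0.14 SE, edgeR adjusted p = 1.8e-04) and gave -0.38 ± 0.15 SE with ETV6_WT (edgeR adjusted p = 0.0747). ETV6_WT was 2.66-fold lower than ETV6_R399C (log2 -1.41 ± 0.15 SE, edgeR adjusted p = 6.6e-05), the largest difference of any member in that comparison.

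DDIT4, an inhibitor of the growth kinase complex mTORC1, stood at 95.9, 86.2 and 91.1 CPM with ETV6_WT, 201, 188 and 150.3 CPM with ETV6_R399C, and 120.4, 118 and 108.1 CPM with tagBFP. The groups did not overlap, with ETV6_WT lowest and ETV6_R399C highest. It fell with ETV6_WT (log2 -0.34 ± 0.09 SE, edgeR adjusted p = 0.0115) and rose with ETV6_R399C (log2 0.64 ± 0.09 SE, edgeR adjusted p = 1.5e-04), both over tagBFP.

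CHAC1, which degrades glutathione and carries the core 209 bases before its RefSeq start, stood at 21.2, 19 and 20.2 CPM with ETV6_WT, 48.2, 48.2 and 43.3 CPM with ETV6_R399C, and 32.8, 34.4 and 30.3 CPM with tagBFP. Again the groups did not overlap. It fell 1.62-fold with ETV6_WT (log2 -0.69 ± 0.07 SE, edgeR adjusted p = 8.7e-06) and rose 1.43-fold with ETV6_R399C (log2 0.52 ± 0.06 SE, edgeR adjusted p = 4.5e-05). Between the transgenes the difference was 2.32-fold, lower with ETV6_WT (edgeR adjusted p = 3.4e-07).

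SESN2, a leucine-binding inhibitor of mTORC1, stood at 41.7, 36.7 and 42.4 CPM with ETV6_WT, 92.7, 92.4 and 75.4 CPM with ETV6_R399C, and 67.6, 68 and 60.7 CPM with tagBFP. The 3 groups were separate here too. SESN2 fell 1.63-fold with ETV6_WT (log2 -0.71 ± 0.08 SE, edgeR adjusted p = 5.8e-05) and rose 1.32-fold with ETV6_R399C (log2 0.41 ± 0.08 SE, edgeR adjusted p = 0.00167). All 4 tested effectors passed the test as lower with ETV6_WT than with ETV6_R399C, where 9.29% of all genes tested did. STC2, a secreted glycoprotein, averaged 0.145 CPM with ETV6_WT, 0.244 CPM with ETV6_R399C and 0.29 CPM with tagBFP, too low to test.

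**Figure D2:**
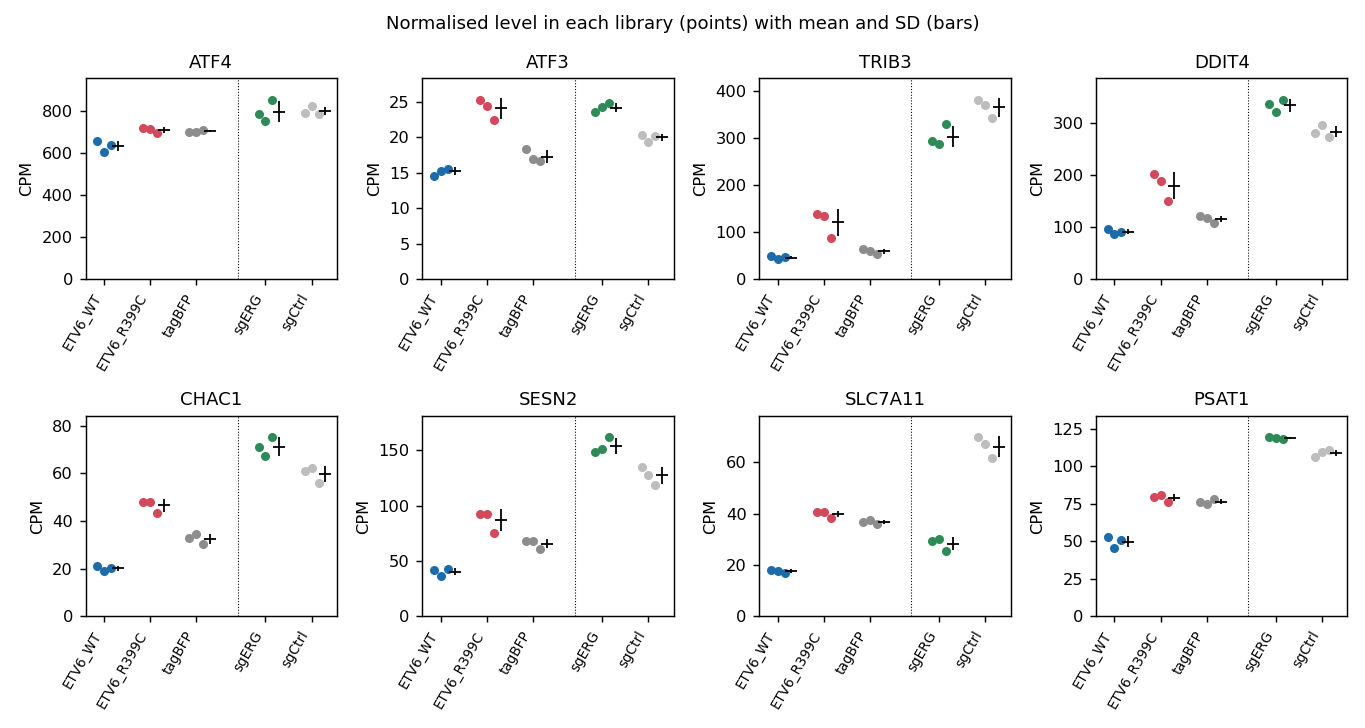
CPM of 8 members in each library (coloured points), with the mean and SD of each group of 3 (black), on axes that start at 0. The dotted line separates the experiments, whose CPM were scaled separately. TRIB3 with ETV6_R399C spans 87.4 to 139 CPM, and SLC7A11 has sgERG at 25.3 to 30 CPM and sgCtrl at 61.5 to 69.7 CPM.

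Of the 7 transporters 4 fell with ETV6_WT and 4 rose with ETV6_R399C, each over tagBFP, and SLC3A2 did both. Over all genes tested, 18.9% were lower with ETV6_WT and 18.8% higher with ETV6_R399C. SLC7A11, the light chain of the cystine-glutamate exchanger that supplies cysteine for glutathione (chromosome 4, 138164097 to 138242349, reverse strand), stood at 18.2, 17.6 and 16.8 CPM with ETV6_WT, 40.6, 40.5 and 38.3 CPM with ETV6_R399C, and 36.9, 37.6 and 36 CPM with tagBFP. All ETV6_WT libraries were under the lowest of the other 6. It fell 2.10-fold with ETV6_WT, the largest fall of any member over tagBFP (log2 -1.07 ± 0.05 SE, edgeR adjusted p = 1.4e-08). With ETV6_R399C the difference was 0.11 ± 0.04 SE (edgeR adjusted p = 0.0599).

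SLC3A2, the heavy chain shared by SLC7A11 and the leucine transporter SLC7A5, averaged 233 ± 9.04 CPM with ETV6_WT, 306 ± 23.5 CPM with ETV6_R399C and 269 ± 11.4 CPM with tagBFP (SD, n = 3 each). Over tagBFP it fell with ETV6_WT (log2 -0.21, edgeR adjusted p = 0.00795) and rose with ETV6_R399C (log2 0.18, edgeR adjusted p = 0.0155), and the rise lost its call without tagBFP replicate 3. On the TPM scale, which is per length, SLC7A11 stood at 0.944 ± 0.0326% of SLC3A2 with ETV6_WT, 1.54 ± 0.150% with ETV6_R399C and 1.71 ± 0.0757% with tagBFP (SD, n = 3 each). SLC7A5 stood at 70.8 ± 0.898% of SLC3A2 with ETV6_WT, 62.3 ± 7.24% with ETV6_R399C and 63.6 ± 1.44% with tagBFP (SD, n = 3 each).

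SLC7A5, SLC1A4, a carrier of serine and alanine, and SLC38A2, a sodium-coupled carrier of neutral amino acids, rose with ETV6_R399C by log2 0.26, 0.31 and 0.31 (edgeR adjusted p = 0.00127, 4.0e-04 and 4.6e-05). None of these 3 passed the test with ETV6_WT over tagBFP, at log2 0.00, -0.14 and -0.05. The glutamine carrier SLC1A5 and the cationic amino-acid carrier SLC7A1 fell with ETV6_WT by 0.28 and 0.23 on the log2 scale (edgeR adjusted p = 5.6e-06 and 7.4e-04) and gave 0.00 and 0.07 with ETV6_R399C (edgeR adjusted p = 0.959 and 0.177). All 7 transporters were lower with ETV6_WT than with ETV6_R399C, by log2 -0.26 to -1.18, where 9.29% of all genes tested were lower.

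In the serine, glycine and one-carbon group 5 of 6 enzymes fell with ETV6_WT and 1 rose with ETV6_R399C. Over all genes tested, 18.9% were lower with ETV6_WT and 18.8% higher with ETV6_R399C, so the 1 rise is near the share of all genes. PSAT1, the aminotransferase of serine synthesis (chromosome 9, 78297143 to 78330093, forward strand), stood at 52.7, 45.5 and 50.7 CPM with ETV6_WT, 79.4, 81.1 and 76.4 CPM with ETV6_R399C, and 76.1, 74.6 and 77.9 CPM with tagBFP. The ETV6_WT libraries lay far below the rest, while ETV6_R399C and tagBFP overlapped. It fell 1.54-fold with ETV6_WT (log2 -0.62 ± 0.05 SE, edgeR adjusted p = 2.1e-06) and gave 0.05 ± 0.05 SE with ETV6_R399C (edgeR adjusted p = 0.436).

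The first and last enzymes of that pathway, PHGDH and PSPH, fell with ETV6_WT by 0.22 and 0.32 on the log2 scale (edgeR adjusted p = 0.00187 and 1.4e-04). PHGDH rose with ETV6_R399C (log2 0.16 ± 0.04 SE, edgeR adjusted p = 0.0114) and PSPH gave -0.08 ± 0.04 SE (edgeR adjusted p = 0.19). The mitochondrial enzymes SHMT2, which turns serine into glycine, and MTHFD2, which carries the one-carbon unit onward, fell with ETV6_WT by 0.31 and 0.39 (edgeR adjusted p = 2.4e-04 and 3.3e-06) and gave 0.10 and 0.03 with ETV6_R399C (edgeR adjusted p = 0.0901 and 0.468). ALDH1L2, a mitochondrial folate enzyme, was under 1 CPM on average in these 3 groups and passed no test. SHMT2 and MTHFD2 overlap genes on the opposite strand, the most abundant of which averaged 6.14 CPM. The leading SHMT2 transcript was by a narrow lead SHMT2-231 with ETV6_WT, and SHMT2-213 in the other 2 groups. Neither is annotated as protein-coding. SHMT2-231 held 26.9 ± 1.21% of the gene's TPM with ETV6_WT, 21 ± 0.964% with ETV6_R399C and 25.1 ± 2.79% with tagBFP (SD, n = 3 each). SHMT2-213 held 26.5 ± 1.52% with ETV6_WT, 24.3 ± 4.85% with ETV6_R399C and 26.1 ± 3.62% with tagBFP (SD, n = 3 each). These differences were not tested.

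Of the enzymes for other amino acids, ASNS, which makes asparagine and carries the core 68 bases before its RefSeq start, averaged 58.8 ± 2.99 CPM with ETV6_WT, 92.9 ± 5.36 CPM with ETV6_R399C and 79.9 ± 1.48 CPM with tagBFP (SD, n = 3 each). It fell with ETV6_WT (log2 -0.44 ± 0.05 SE, edgeR adjusted p = 2.7e-05) and rose with ETV6_R399C (log2 0.22 ± 0.05 SE, edgeR adjusted p = 0.00302).

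ALDH18A1, which makes the precursor of proline, behaved otherwise. It stood at 129.6, 131 and 130.4 CPM with ETV6_WT, 119, 118 and 126 CPM with ETV6_R399C, and 146, 140.3 and 140.5 CPM with tagBFP. Both transgenes lay below tagBFP, with log2 fold changes of -0.13 ± 0.03 SE with ETV6_WT and -0.24 ± 0.03 SE with ETV6_R399C (edgeR adjusted p = 0.00946 and 1.6e-04). It was the 1 member called higher with ETV6_WT than with ETV6_R399C (log2 0.11 ± 0.03 SE, edgeR adjusted p = 0.0385), a call lost in 11 of the alternative settings, with adjusted p of 0.00817 to 0.205. GPT2, an alanine aminotransferase at 0.747 to 1.04 CPM in these 3 groups, and CTH, which makes cysteine, passed no test. PYCR1, a proline enzyme, was listed at 0 in 14 of the 15 libraries, which may be a failed estimate and is not read as absence. The leading CTH transcript in these 3 groups was the non-coding CTH-205, with 64.2 ± 3.07% of its TPM with ETV6_WT, 34.2 ± 8.69% with ETV6_R399C and 50.7 ± 3.14% with tagBFP (SD, n = 3 each).

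All 9 genes for tRNA charging and export fell with ETV6_WT, with log2 fold changes of -0.16 (AARS) to -0.43 (XPOT). There, 18.9% of all genes tested were lower. With ETV6_R399C 2 rose and 3 fell over tagBFP, where 18.8% of all genes tested were higher and 22.1% lower. AARS, for alanine, and SARS, for serine, rose by log2 0.25 and 0.19 (edgeR adjusted p = 0.00167 and 0.00839).

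NARS, for asparagine, stood at 228, 223 and 225 CPM with ETV6_WT, 236, 236 and 241 CPM with ETV6_R399C, and 280.1, 274 and 283 CPM with tagBFP. Both transgenes lay below tagBFP without overlap (log2 -0.31 with ETV6_WT, edgeR adjusted p = 1.9e-06, and -0.23 with ETV6_R399C, edgeR adjusted p = 2.1e-05). EPRS, for glutamate and proline, stood at 309, 299.5 and 298 CPM with ETV6_WT, 312, 321 and 325 CPM with ETV6_R399C, and 366, 352 and 345 CPM with tagBFP. It too lay below tagBFP with both (log2 -0.23 with ETV6_WT, edgeR adjusted p = 8.6e-05, and -0.15 with ETV6_R399C, edgeR adjusted p = 0.00151).

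GARS, for glycine, stood at 217, 212 and 209 CPM with ETV6_WT, 274, 265 and 268 CPM with ETV6_R399C, and 287, 280.5 and 279 CPM with tagBFP. ETV6_WT was far below tagBFP (log2 -0.41 ± 0.03 SE, edgeR adjusted p = 2.7e-07) and ETV6_R399C just below it (log2 -0.07 ± 0.03 SE, edgeR adjusted p = 0.043). The second call was lost in 10 of the alternative settings, with adjusted p of 0.0377 to 0.226, and the TPM means stood the other way, at 138 with ETV6_R399C and 136 with tagBFP. WARS, MARS, IARS and XPOT, for tryptophan, methionine, isoleucine and tRNA export, did not pass the test with ETV6_R399C, at log2 0.03, -0.06, -0.08 and 0.00. Of the 9 tRNA genes 8 were lower with ETV6_WT than with ETV6_R399C, where 9.29% of all genes tested were. The exception was EPRS (log2 -0.08 ± 0.03 SE, edgeR adjusted p = 0.0761). The call for NARS in that comparison (log2 -0.08, edgeR adjusted p = 0.0433) was lost without ETV6_WT replicate 2 or 3 or ETV6_R399C replicate 2 or 3.

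**Figure D3:**
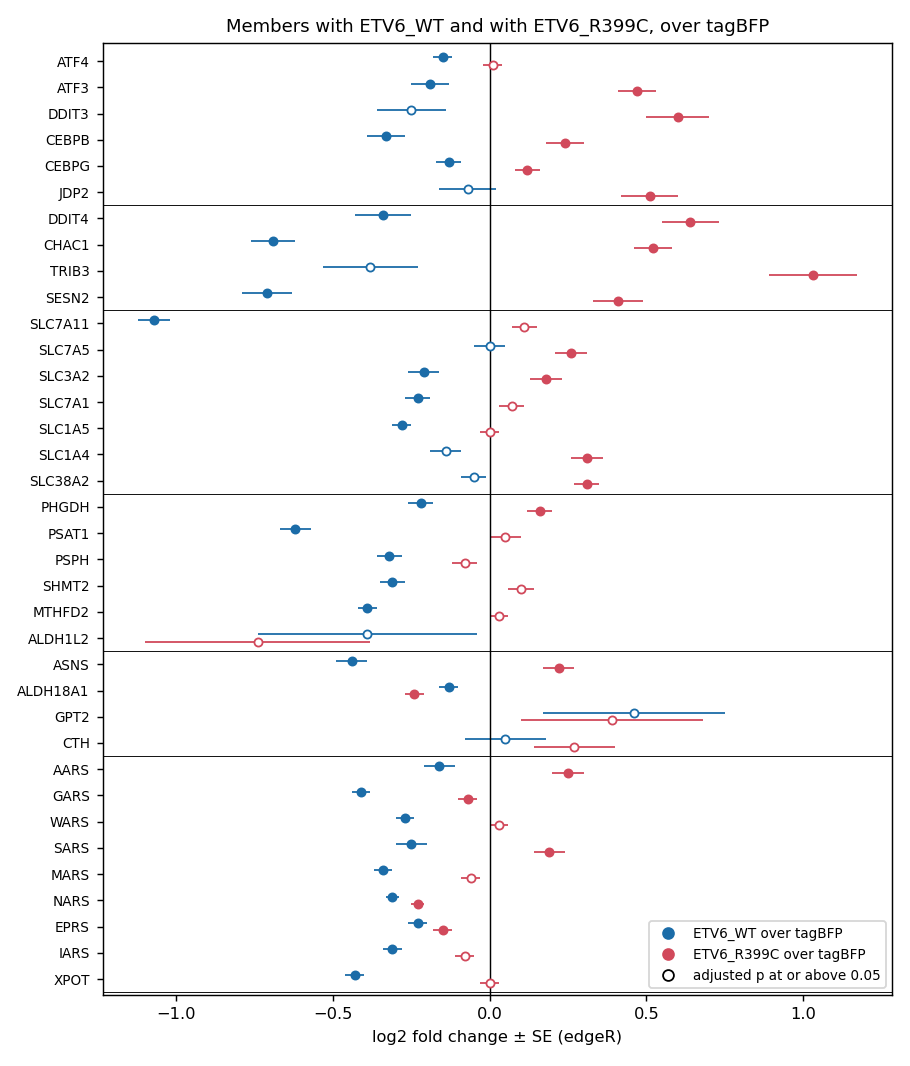
Log2 fold changes with SE from edgeR for the 36 tested members with ETV6_WT (blue) and with ETV6_R399C (red), each over the same 3 tagBFP libraries, in role order from transcription factors at the top to tRNA genes at the bottom. Open points did not pass the test. No blue filled point lies right of 0, and the red filled points lie right of 0 except ALDH18A1, GARS, NARS and EPRS.

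Read gene by gene, the calls fell into few patterns. The share of all genes with each pattern was not counted, and the comparisons share libraries. The patterns are therefore not read as a trait of the members. Over all genes tested, 18.9% were lower with ETV6_WT and 18.8% higher with ETV6_R399C, each over tagBFP. For 11 members ETV6_WT was lower than tagBFP, ETV6_R399C higher than tagBFP, and ETV6_WT lower than ETV6_R399C: AARS, ASNS, ATF3, CEBPB, CEBPG, CHAC1, DDIT4, PHGDH, SARS, SESN2 and SLC3A2. For 12, ETV6_WT was lower than both other groups and ETV6_R399C did not pass the test: ATF4, IARS, MARS, MTHFD2, PSAT1, PSPH, SHMT2, SLC1A5, SLC7A1, SLC7A11, WARS and XPOT. For 6, ETV6_R399C was higher than both other groups and ETV6_WT did not pass over tagBFP: DDIT3, JDP2, SLC1A4, SLC38A2, SLC7A5 and TRIB3. GARS, NARS, EPRS and ALDH18A1 were lower than tagBFP with both transgenes, and ALDH1L2, CTH and GPT2 passed no test. Some calls depended on a setting. The falls of ALDH18A1, ATF3, CEBPG, DDIT4, SLC3A2 and SLC7A1 with ETV6_WT over tagBFP lost their calls when average transcript length was allowed for. So did ATF3, CEBPG and GARS with ETV6_R399C over tagBFP, and ALDH18A1, ATF3, NARS and WARS with ETV6_WT over ETV6_R399C. The fall of AARS with ETV6_WT lost its call without ETV6_WT replicate 2 or 3 or tagBFP replicate 1. DDIT3 and TRIB3 passed as lower with ETV6_WT than with tagBFP in the fit of those groups alone, and these genes and SLC1A4 did so in the fit without a filter on low counts. DDIT3 also passed without ETV6_WT replicate 1, and SLC1A4 without ETV6_WT replicate 3 or tagBFP replicate 2.

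Some libraries were low for many members at once. ETV6_R399C replicate 3 was the lowest library of its group for 29 of the 36 members, tagBFP replicate 3 for 26 and ETV6_WT replicate 2 for 23. Replicate 1 was the highest library of its group for 23 members with ETV6_WT, 18 with ETV6_R399C and 23 with tagBFP. The same counts over all genes are not given, so these are not read as a trait of the members. Without ETV6_R399C replicate 3, 19 members were higher and 3 lower than with tagBFP, and 30 were lower and 1 higher with ETV6_WT than with ETV6_R399C.

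**Figure D4:**
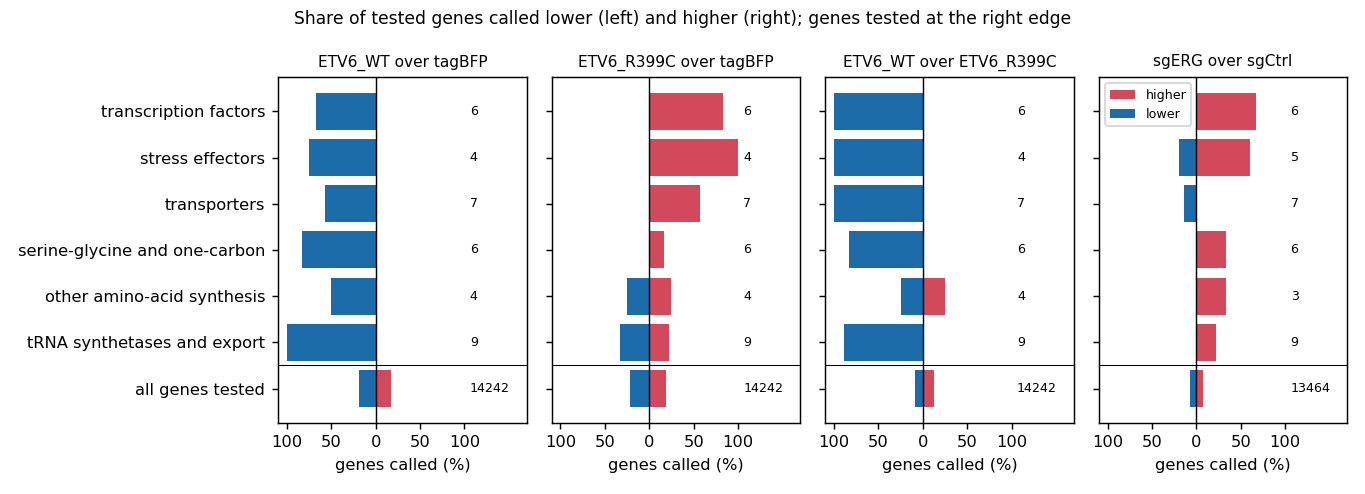
For each comparison, the share of tested genes called higher (red, right of 0) and lower (blue, left of 0) in each role group and over all genes tested, with the number tested at the right edge. All 9 tRNA genes were lower with ETV6_WT over tagBFP, against 18.9% of all genes tested. All 4 tested effectors were higher with ETV6_R399C over tagBFP, against 18.8%.

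With ERG knocked down, fewer members passed the test than with either transgene over tagBFP, and most of those were higher. Of 36 members tested 12 were higher with sgERG than with sgCtrl and 2 lower, where 6.89% of 13464 genes were higher and 7.74% lower, and the members' median was 0.10. Only SLC7A11 differed by 1.5-fold or more among those called, and the same count over all genes was not made. Without sgCtrl replicate 1 the calls were 6 higher and 1 lower, and without sgCtrl replicate 3 they were 5 higher and 2 lower. The calls for CEBPB, DDIT4, SESN2, WARS and SLC7A11 held in every alternative tried.

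ATF4 stood at 782, 753 and 851 CPM with sgERG and 787, 823 and 786 CPM with sgCtrl, which overlapped (log2 -0.01 ± 0.05 SE, edgeR adjusted p = 0.95). CEBPB stood at 188, 171 and 194 CPM with sgERG and 139, 134 and 126 CPM with sgCtrl, without overlap. It rose 1.39-fold, the largest rise of a member called there (log2 0.47 ± 0.06 SE, edgeR adjusted p = 2.7e-04). ATF3 stood at 23.6, 24.3 and 24.8 CPM with sgERG and 20.3, 19.4 and 20.2 CPM with sgCtrl, and rose by log2 0.28 ± 0.06 SE (edgeR adjusted p = 0.0088), a call lost when average transcript length was allowed for.

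The 2 members that fell with sgERG were SLC7A11 and TRIB3. SLC7A11 stood at 29.2, 30 and 25.3 CPM with sgERG and 69.7, 67.1 and 61.5 CPM with sgCtrl, far apart. It fell 2.34-fold (log2 -1.23 ± 0.07 SE, edgeR adjusted p = 2.0e-06), and as a share of SLC3A2 on the TPM scale it stood at 0.835 ± 0.107% with sgERG and 2.04 ± 0.185% with sgCtrl (SD, n = 3 each). TRIB3 stood at 292, 287 and 328 CPM with sgERG and 381, 370.1 and 343 CPM with sgCtrl, close but without overlap (log2 -0.27 ± 0.06 SE, edgeR adjusted p = 0.0113). That call was lost without sgCtrl replicate 1 or sgERG replicate 2.

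Of the other effectors, SESN2, CHAC1 and DDIT4 rose with sgERG by log2 0.27, 0.26 and 0.24 (edgeR adjusted p = 0.00671, 0.0134 and 0.00464), and CHAC1 lost its call without sgCtrl replicate 3. STC2, tested in this experiment alone, averaged 3.20 ± 0.568 CPM with sgERG and 2.45 ± 0.418 CPM with sgCtrl (SD, n = 3 each; edgeR adjusted p = 0.198). No transporter other than SLC7A11 passed the test, and their log2 fold changes ran from -0.07 to 0.11.

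SHMT2 stood at 435, 427 and 488 CPM with sgERG and 354, 398 and 358 CPM with sgCtrl (log2 0.28 ± 0.06 SE, edgeR adjusted p = 0.0108), a call lost without sgCtrl replicate 1 or 3. WARS, the tryptophan synthetase, stood at 75.9, 74.7 and 81.3 CPM with sgERG and 62.9, 67 and 60.6 CPM with sgCtrl (log2 0.29 ± 0.05 SE, edgeR adjusted p = 0.00463). WARS overlaps WDR25 on the opposite strand, which averaged 8.97 CPM. In both SHMT2 and WARS every sgERG library was above every sgCtrl library. MTHFD2, ASNS, AARS, CEBPG and DDIT3 were the other members called higher, by log2 0.15 to 0.18, and each lost its call without sgCtrl replicate 1 or 3. ASNS and CEBPG also lost it without sgCtrl replicate 2 or sgERG replicate 1 or 2, MTHFD2 without sgERG replicate 1 or 2, and DDIT3 without any 1 of the 6 libraries. PHGDH and PSAT1 gave 0.18 and 0.13 (edgeR adjusted p = 0.064 and 0.0518), and 7 of the 9 tRNA genes did not pass the test.

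**Figure D5:**
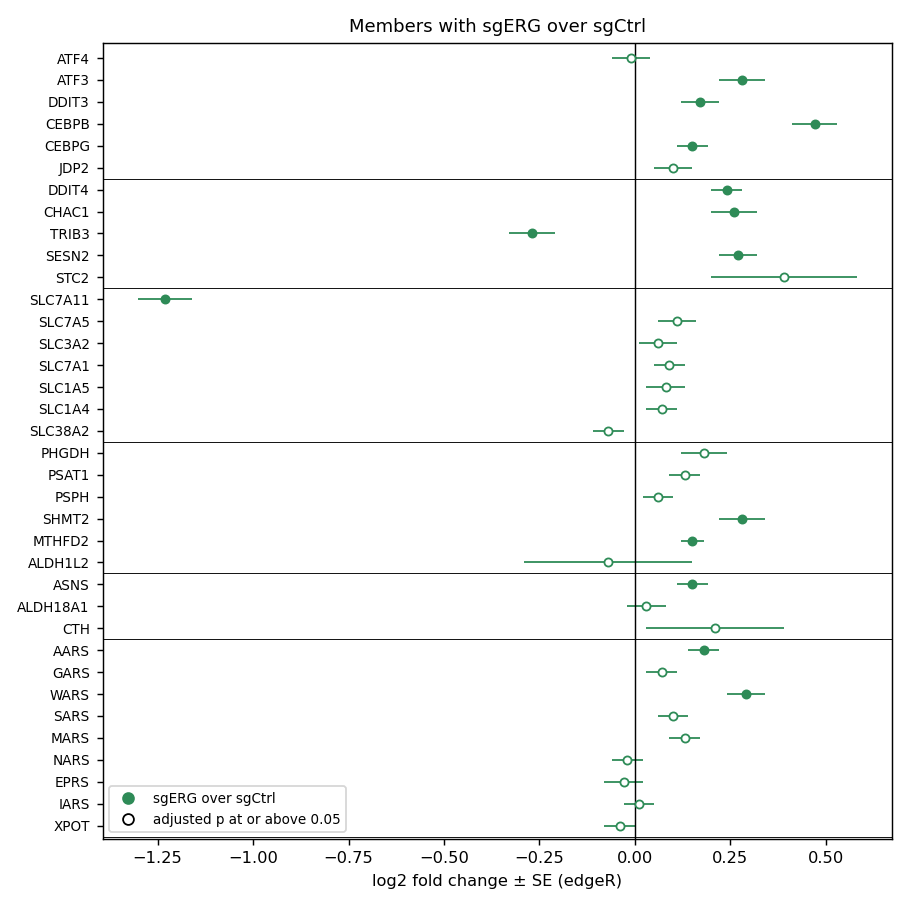
Log2 fold changes with SE from edgeR for the 36 members tested with sgERG over sgCtrl, in role order from the top. Open points did not pass the test. SLC7A11 at -1.23 stands apart on the left, and the 12 members called higher lie between 0.15 and 0.47.

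The experiments have different control libraries, so their calls can be set side by side. Of the 35 members tested in both experiments 27 (77.1%) were lower with ETV6_WT over tagBFP and 12 (34.3%) higher with sgERG over sgCtrl. The 11 in both lists were AARS, ASNS, ATF3, CEBPB, CEBPG, CHAC1, DDIT4, MTHFD2, SESN2, SHMT2 and WARS, which is 40.7% of the 27 and 91.7% of the 12. These shares stand beside 34.3% and 77.1% of all 35 members, and whether they differ from those was not tested. Over the 12825 genes tested in both, 2675 (20.9%) were lower with ETV6_WT and 898 (7%) higher with sgERG. The 246 in both were 9.2% of the genes lower with ETV6_WT and 27.4% of those higher with sgERG. SLC7A11 was the 1 member called lower in both. DDIT3 (higher) and TRIB3 (lower) were called with sgERG and not with ETV6_WT, and whether effects differ between experiments was not tested.

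The level of the module also differed between the control groups. On the TPM scale 32 of 34 members at 1 TPM or more in both (94.1%) were higher in sgCtrl than in tagBFP, against 56.6% of 11548 genes, and 17 (50%) were at least 2-fold higher, against 11.9%. TRIB3 stood at 212 ± 14.1 TPM in sgCtrl and 28.5 ± 3.54 TPM in tagBFP, SLC7A5 at 547 ± 17.2 TPM in sgCtrl and 143 ± 11 TPM in tagBFP, and JDP2 at 57.2 ± 1.56 TPM in sgCtrl and 11.6 ± 0.815 TPM in tagBFP (SD, n = 3 each). JDP2-206 held 53.1 ± 0.322% of the JDP2 TPM in sgCtrl and 18.2 ± 2.12% in tagBFP, and the CPM, scaled separately in each experiment, were closer, at 37.7 ± 0.481 in sgCtrl and 13.9 ± 0.874 in tagBFP. Mitochondrial genes took 2.84 to 3.16% of reads in sgCtrl and 1.16 to 1.42% in tagBFP. CTH was lower, at 1.96 ± 0.263 TPM in sgCtrl and 4.44 ± 0.966 TPM in tagBFP. The groups differ in vector, induction time, sorting and experiment, which cannot be told apart, and no test was made; the part of transcript use and mitochondrial reads was not tested.

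Genes near the module in function were set beside it. Of 10 tested genes upstream of ATF4 in the integrated stress response, 2 were higher and 3 lower with ETV6_WT over tagBFP, 3 higher and 4 lower with ETV6_R399C over tagBFP, and 1 higher and 1 lower with sgERG over sgCtrl. Over all genes tested, 17.6% were higher and 18.9% lower, 18.8% and 22.1%, and 6.89% and 7.74%, in that order. EIF2AK3, the eIF2 kinase of the endoplasmic reticulum, was higher with both transgenes, at 209 ± 2.43 CPM with ETV6_WT and 231 ± 3.27 CPM with ETV6_R399C against 140.5 ± 0.779 CPM with tagBFP (SD, n = 3 each). The log2 fold changes were 0.58 with ETV6_WT (edgeR adjusted p = 1.0e-08) and 0.71 with ETV6_R399C (edgeR adjusted p = 3.4e-09). PPP1R15A, the phosphatase subunit that ends the response and is itself an ATF4 target, stood at 28.4 ± 0.589 CPM with ETV6_WT, 45.6 ± 8.89 CPM with ETV6_R399C and 28.8 ± 1.03 CPM with tagBFP (SD, n = 3 each). It rose with ETV6_R399C (log2 0.67 ± 0.11 SE, edgeR adjusted p = 5.0e-04) and with sgERG over sgCtrl (log2 0.32 ± 0.06 SE, edgeR adjusted p = 0.0048), and gave -0.02 with ETV6_WT (edgeR adjusted p = 0.92).

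Of 19 other genes reported as ATF4 targets, 3 were higher and 10 lower with ETV6_WT, 10 higher and 5 lower with ETV6_R399C, and 0 higher and 13 lower with ETV6_WT over ETV6_R399C. The shares over all genes tested were 17.6% higher and 18.9% lower, 18.8% and 22.1%, and 12.1% and 9.29%, in that order. With sgERG over sgCtrl 5 of 18 tested were higher and 3 lower, where 6.89% of all genes tested were higher and 7.74% lower. ASS1, which makes the precursor of arginine, averaged 132 ± 11.4 CPM with ETV6_WT, 244 ± 27.4 CPM with ETV6_R399C and 167 ± 7.53 CPM with tagBFP (SD, n = 3 each). Over tagBFP it fell with ETV6_WT (log2 -0.35, edgeR adjusted p = 0.00547) and rose with ETV6_R399C (log2 0.55, edgeR adjusted p = 1.9e-04). The cationic amino-acid carrier SLC7A3 rose with ETV6_R399C (log2 0.55 ± 0.05 SE, edgeR adjusted p = 4.2e-06), and the leucine carrier SLC43A1 fell with both transgenes (log2 -0.54 with ETV6_WT and -0.15 with ETV6_R399C, edgeR adjusted p = 2.5e-07 and 0.00324).

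For the lists that follow, 17.6% of all genes tested were higher and 18.9% lower with ETV6_WT over tagBFP. The shares were 18.8% and 22.1% with ETV6_R399C over tagBFP, and 12.1% and 9.29% with ETV6_WT over ETV6_R399C. The 12 cytosolic synthetases outside the module were lower in 11 cases and higher in 0 with ETV6_WT over tagBFP, and lower in 8 and higher in 1, CARS, with ETV6_R399C over tagBFP (CARS log2 0.15, edgeR adjusted p = 0.0174). With ETV6_WT over ETV6_R399C 3 of them were lower, CARS, TARS and YARS, for cysteine, threonine and tyrosine (log2 -0.42, -0.23 and -0.18, edgeR adjusted p = 6.4e-05, 4.3e-04 and 0.00105), and KARS, for lysine, was higher (log2 0.12, edgeR adjusted p = 0.0164). Of 16 mitochondrial synthetases 8 were lower with ETV6_WT, 10 with ETV6_R399C and 0 higher with either, while 3 were higher and 0 lower with ETV6_WT over ETV6_R399C. Their log2 fold changes there ran from -0.16 to 0.23, against -0.08 to -0.44 for the 9 tRNA genes of the module. With sgERG over sgCtrl 1 of the 12 cytosolic synthetases was lower and 0 higher, and 1 of the 16 mitochondrial ones higher and 0 lower. Over all genes tested there, 6.89% were higher and 7.74% lower. Of 8 tested targets of NRF2, the other main regulator of SLC7A11, 5 were lower and 0 higher with either transgene over tagBFP, and 1 was higher and 1 lower with ETV6_WT over ETV6_R399C. The higher one was NQO1, a quinone reductase (log2 0.52 ± 0.08 SE, edgeR adjusted p = 0.00104), which gave 0.03 with ETV6_WT over tagBFP (edgeR adjusted p = 0.794) and fell with ETV6_R399C (log2 -0.49, edgeR adjusted p = 5.5e-04). The lower one was GCLM (log2 -0.22, edgeR adjusted p = 0.0199). GCLM, a subunit of the enzyme that starts glutathione synthesis, fell with ETV6_WT (log2 -0.37 ± 0.06 SE, edgeR adjusted p = 4.0e-04) and with sgERG over sgCtrl (log2 -0.36 ± 0.06 SE, edgeR adjusted p = 0.00389), and gave -0.15 ± 0.06 SE with ETV6_R399C (edgeR adjusted p = 0.0539).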

How the data were processed

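Per the file headers, the authors deposited 1 Salmon table per library with estimated counts of reads, TPM and effective length per transcript. The submitters' processing notes name Salmon 0.11.3 and hg38. For the strand setting and read filters, the sources used here give nothing. Of 167268 transcripts 90.3% matched GENCODE 29; the others held 6.67% to 7.56% of a library's reads and were left out. Estimated counts were summed per gene and rounded. The deposited TPM were summed per gene for levels between genes or experiments. No replicates agreed within sampling noise (chi-square per degree of freedom 2.79 to 14.0).

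The test was edgeR 4.0.16's quasi-likelihood test (R 4.3.3), after TMM scaling and the default filter on low counts, with Benjamini-Hochberg adjustment at 0.05. ETV6_WT, ETV6_R399C and tagBFP entered 1 fit of 9 libraries, sgERG and sgCtrl 1 of 6. The SE is the log2 fold change over the square root of F and restates the test. The fit was tested on simulated data. Members and lists were chosen with earlier results of these data known. Members with every library's value are ATF4 and, per comparison, the up to 4 largest rises and falls that passed. The promoter rule fixed for these members gave CHAC1, ATF3 and NARS, and the other matches were added after their values were seen. Of other lists up to 3 genes with the smallest p in ETV6_WT over ETV6_R399C are named. Alternatives were no filter, DESeq2 size factors, DESeq2 1.42.0, a transcript length offset, a replicate block, fits of 2 groups and leaving out each library.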

Additional observations from a re-analysis of the deposited data

How the results depend on the processing

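No called member changed sign under any alternative. Of the called members, 20 of 27 with ETV6_WT over tagBFP, 17 of 21 with ETV6_R399C over tagBFP, 28 of 32 with ETV6_WT over ETV6_R399C and 5 of 14 with sgERG over sgCtrl held their call in every alternative tried. With the average transcript length as an offset, ETV6_WT over tagBFP had 21 members and 2913 genes called (main 27 and 5202), ETV6_R399C over tagBFP 18 and 3427 (main 21 and 5826), ETV6_WT over ETV6_R399C 28 and 1236 (main 32 and 3044) and sgERG over sgCtrl 10 and 1357 (main 14 and 1969). The cause was not tested. Leaving out 1 library gave 7 to 14 members called with sgERG over sgCtrl (main 14), the lowest without sgCtrl replicate 1 or 3, and 1160 to 2302 genes (main 1969). For ETV6_WT over ETV6_R399C it gave 2008 to 3110 genes (main 3044), the lowest without ETV6_R399C replicate 1 or ETV6_WT replicate 2. Over all genes, same-numbered libraries did not deviate together (correlations of -0.053 to 0.075 and -0.097 to 0.019). This cannot exclude, with 3 libraries per group, that the numbers pair samples. With a replicate block 28 members were called with ETV6_WT over tagBFP, 23 with ETV6_R399C over tagBFP, 30 with ETV6_WT over ETV6_R399C and 10 with sgERG over sgCtrl. The median of all genes moved by at most 0.02 on the log2 scale. NUPR1 (0 to 6 reads per library) and PYCR1 (0 to 1) had too few reads to test, as had STC2 with the transgenes and tagBFP (3 to 11) and GPT2 with sgERG and sgCtrl (1 to 5).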
